A study of Homo sapiens with 18 samples.

Results

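The end of the long arm of chromosome 3 (3q) was examined in neuroblastoma lines that had become resistant to entrectinib, an oral inhibitor of the TRK, ROS1 and ALK kinases. The members are the protein-coding genes of chromosome 3 that start between the starts of EHHADH and LRCH3, both included, in the order of GENCODE v29. IGF2BP2, ETV5, HES1, DNAJB11 and RPL39L were left out by the same rule. This gave 83 members among 63657 gene identifiers, of which 44 reached at least 1 FPKM (fragments scaled by transcript length and by the library total) in at least 3 of 18 libraries and entered the tests among 19799 genes in all. The stretch was chosen by the FPKM differences of ER42, a resistant line, from each other line in these libraries, so every ER42 comparison below is a description of that choice.

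RNA was sequenced from 6 lines with 3 libraries each. ER42 and ER47 came from xenograft tumours of nude mice given entrectinib at 60 mg/kg by mouth every 6 hours, and ER5, ER28 and ER29 from mice dosed every 4 hours. All 5 tumours had first responded and then regrown, and each line descends from 1 such tumour. The cells were raised through entrectinib concentrations of 10 to 750 nM and kept at 200 nM until harvest. The parental line SY5Y_BR6 is a TrkB-expressing derivative of the SH-SY5Y neuroblastoma line for which the labels name neither a xenograft nor a drug. Resistance, the drug at harvest, mouse passage and culture history therefore cannot be told apart between any ER line and the parental line. Nothing in the labels tells whether a line's 3 libraries are separate cultures; p-values then measure only the spread between these libraries, which may be technical.

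As background, genes at the distal end of 3q share a place and not a pathway: they include genes for mRNA processing, DNA repair, iron uptake, mitochondrial fusion, cell polarity and glycosylation. Gain of distal 3q is a common chromosome change of squamous carcinomas. The files used here hold RNA levels, and DNA copy number was not analysed here.

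Sequencing depth, read from the steps between low values, ranged from 1 to 1.95 times that of parental replicate 1. For each other library this was the most common ratio among low genes. Only 8.58% to 25.9% of these genes shared it, so the depths are rough. Between 16041 and 18265 genes reached 1 FPKM per library. Of 9 markers of noradrenergic neuroblastoma, 8 reached 1 FPKM in all libraries of every line. TH was the exception, under 1 FPKM in every library of every line. It had 0.211, 0.581 and 0.534 FPKM in ER42 and 0, 0.0267 and 0.082 FPKM in the parental line. Their summed level was 1940 to 2030 FPKM in ER42 and 2680 to 2760 FPKM in the parental line. Endothelial markers summed to at most 0.645 FPKM and haematopoietic markers to at most 1.46 FPKM in any library. In bulk RNA, fewer cells of a type and less RNA per cell cannot be told apart.

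Across the 44 tested members, levels were on median higher in ER42 than in every other line. The median difference, on the log2(FPKM + 1) scale used for all differences here, was 0.52 from ER5, 0.51 from ER28, 0.52 from ER29, 0.51 from ER47 and 0.36 from the parental line. Over all tested genes the same medians were 0.01, 0.02, 0.01, 0.05 and 0.02. As ratios of mean FPKM, the median member stood at 1.46, 1.48, 1.46, 1.48 and 1.31 times the level in ER5, ER28, ER29, ER47 and the parental line. Against the parental line all 44 differences were above 0, and 37 members had differences above 0 against each of the 5 lines, beside 18.8% of all tested genes. The parental differences had a range of 0.03 to 2.53 and quartiles of 0.24 and 0.57.

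With limma and a Benjamini-Hochberg adjusted p under 0.05 over all tested genes, ER42 was called higher than ER5 in 33 of 44 members, against 21.4% of all tested genes. Than ER28 it was called higher in 36 members, against 10.4%. Than ER29 it was called higher in 34 members, against 15.5%, and than ER47 in 32 members, against 11.8%. Than the parental line it was called higher in 34 members, against 16.9%. These counts restate the choice of the stretch. The lone member called lower in any of these comparisons was NCBP2-AS2, which is named as antisense to NCBP2 and was lower than in ER5 only; 20.9% of all tested genes were lower there. No member was called lower than in ER28, ER29, ER47 or the parental line, against 10.8%, 15.2%, 7.72% and 22.8% of all tested genes. None was called lower than in all 5 lines, against 1.18%.

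Taking each library alone gives the same picture. The median of the members, as a log2 difference from the mean of the 15 libraries of the other lines, was 0.45, 0.55 and 0.52 in the ER42 libraries. In those 15 libraries it lay between −0.10 and 0.10, so that no library of another line came near an ER42 library. The parental libraries had the highest of these values, 0.07, 0.09 and 0.10. Protein-coding genes on the rest of chromosome 3 had medians of 0.01, 0.03 and 0.00 in ER42 and of 0.09, 0.09 and 0.10 in the parental libraries, so a small parental offset was present there too.

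**Figure D1:**
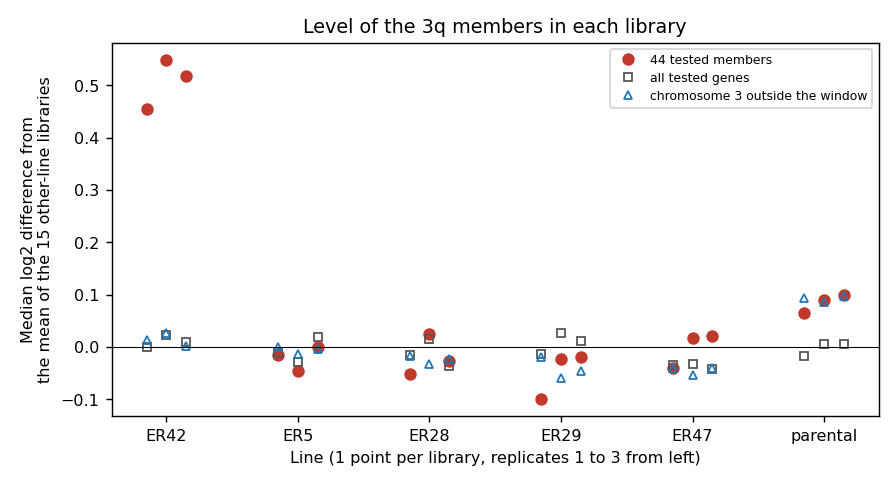
Median log2 difference (y axis, log2(FPKM + 1) scale) of each library from the mean of the 15 libraries that are not ER42, by line (x axis, 1 point per library). Filled circles are the 44 tested members, squares all tested genes and triangles chromosome 3 outside the window; the ER42 circles sit at 0.45 to 0.55 and all others between −0.10 and 0.10.

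The higher levels were spread over the members rather than carried by a few. A total of 22 of 44 members were called higher in ER42 than in each of the 5 other lines, against 1.33% of all tested genes, and 24 had their lowest ER42 library above the highest of the 15 others, against 2.65%. Another 9 members were called higher in 4 of the 5 comparisons, 5 in 3, 2 in 2 and 4 in 1. CEP19, a centrosomal protein, and PIGZ, a mannosyltransferase of GPI anchor synthesis, were called in none; both were low, at 1.55 ± 0.0134 and 1.39 ± 0.297 FPKM in ER42 (SD, n = 3). The highest means of the 5 differences belonged to LPP at 1.47, BDH1 at 0.91, and FBXO45, TCTEX1D2 and LRCH3 at 0.74 each. The lowest belonged to CEP19 at 0.15, PIGZ at 0.16, PCYT1A at 0.18, NCBP2-AS2 at 0.19 and TMEM41A at 0.23. Split by abundance, the 32 members with a mean of at least 10 FPKM had a median difference of 0.36 from the parental line. The 12 members below 10 FPKM had 0.47. The order was the other way round against each resistant line: 0.52 and 0.35 from ER5, 0.53 and 0.38 from ER28, 0.60 and 0.34 from ER29, 0.55 and 0.33 from ER47.

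**Figure D2:**
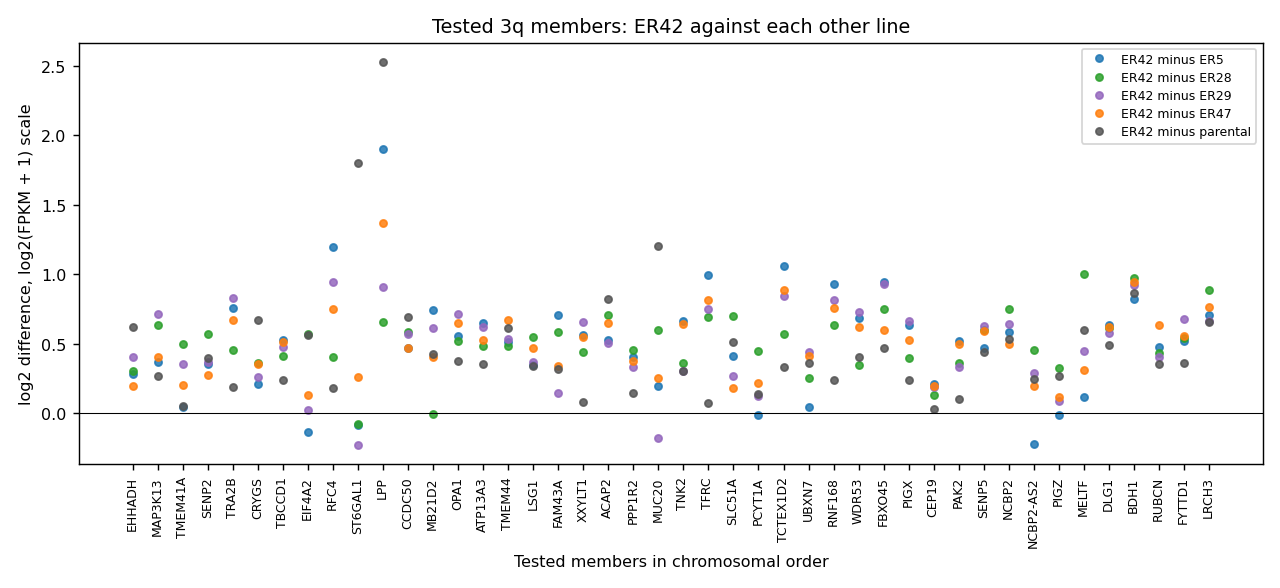
Log2 difference (y axis, log2(FPKM + 1) scale) of ER42 from each other line for the 44 tested members in chromosomal order (x axis); each colour is 1 comparison. Most points lie between 0 and 1, with LPP the highest at 2.53 against the parental line and ST6GAL1 apart, at 1.80 against the parental line and between −0.23 and 0.26 against the other resistant lines.

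The clearest cases were genes whose means lay close together in the 5 other lines. BDH1, the mitochondrial dehydrogenase that interconverts the ketone bodies acetoacetate and 3-hydroxybutyrate, had 47.1, 44.1 and 45.2 FPKM in ER42. In the other 15 libraries it had 20.8 to 27.8 FPKM, with a median of 24.0, so every ER42 library was well above all of them. Its differences ran from 0.82 against ER5 to 0.97 against ER28, with 0.86 against the parental line. Among the 5 other lines BDH1 gave no difference that passed the limma F test (adjusted p = 0.563).

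LRCH3, a leucine-rich repeat protein and the last member on the arm, had 43.8, 45.2 and 45.7 FPKM in ER42, against 20.1 to 32.8 FPKM in the other libraries (median 26.6). DLG1, a scaffold of cell junctions and synapses and the human homologue of the fly polarity gene discs large, had 62.4, 67.0 and 68.6 FPKM in ER42, against 38.5 to 50.5 FPKM elsewhere (median 42.3). Neither gene's ER42 libraries overlapped the others. The difference from the parental line was 0.66 for LRCH3 and 0.49 for DLG1.

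**Figure D3:**
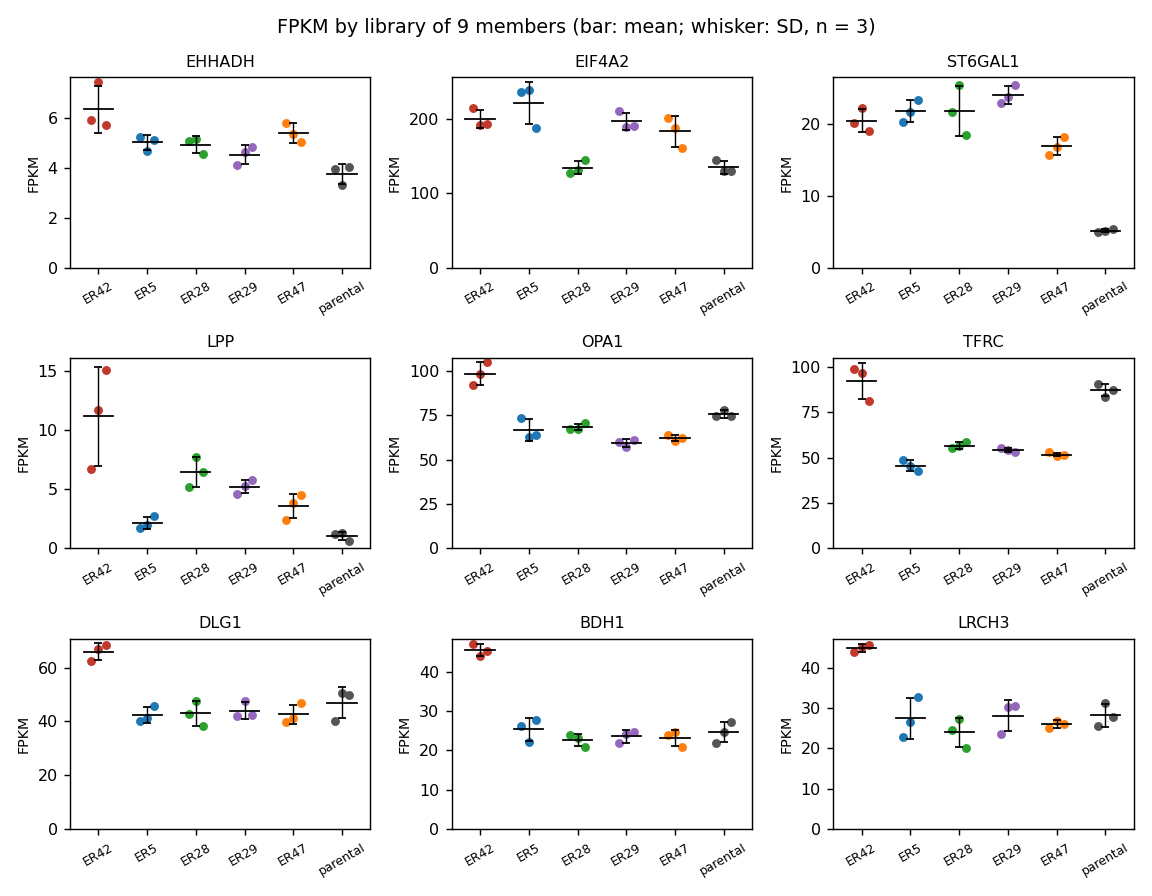
FPKM (y axis, linear, from 0) of 9 members in each library by line (x axis); points are libraries, the bar is the mean and the whisker the SD (n = 3). BDH1, LRCH3, DLG1 and OPA1 are higher in all ER42 libraries than in any other, TFRC is high in ER42 and in the parental line, and ST6GAL1 is low in the parental line alone.

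All 5 members for RNA processing and translation were tested. Of these, 4, 5, 4, 4 and 4 were called higher in ER42 than in ER5, ER28, ER29, ER47 and the parental line. For this list and those below, the shares over all tested genes were 21.4%, 10.4%, 15.5%, 11.8% and 16.9% in the same order. The stretch was chosen on these comparisons, so the counts per list restate that choice and are not results about a function. NCBP2, the small subunit of the nuclear cap-binding complex, had 137, 125 and 120.0 FPKM in ER42, against 73.8 to 92.8 FPKM elsewhere. LSG1, a GTPase of late maturation of the large ribosomal subunit, and FYTTD1, an adaptor of mRNA export, averaged 32.3 ± 1.66 and 43.7 ± 1.28 FPKM in ER42, and their ER42 libraries also lay above all others. EIF4A2 did not follow: this helicase paralogue of the translation initiation factor eIF4A1 was the most abundant member, with 215, 193 and 194 FPKM in ER42. It had 237, 240.0 and 189 FPKM in ER5 and 145, 130.0 and 131 FPKM in the parental line, so that ER42 overlapped ER5 and stood above the parental line (differences of −0.14 and 0.56).

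TRA2B, a regulator of splicing, had 155, 169 and 183 FPKM in ER42. The next highest line was the parental one, with 150.0, 149 and 144 FPKM, and ER29 was the lowest with 90.0, 95.0 and 97.8 FPKM. The difference in TRA2B was thus 0.83 from ER29 and 0.19 from the parental line.

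All 8 members in DNA replication, DNA repair, ubiquitin and SUMO biology were tested, and 7, 7, 8, 8 and 7 were called higher in ER42 than in ER5, ER28, ER29, ER47 and the parental line. FBXO45, a substrate receptor of a ubiquitin ligase of the nervous system, had 22.5, 22.2 and 21.6 FPKM in ER42, against 10.2 to 16.7 FPKM in the other libraries. RNF168, the ubiquitin ligase that marks histones at DNA double-strand breaks, had 22.3, 23.7 and 23.1 FPKM in ER42, against 11.2 to 19.6 FPKM. The SUMO proteases SENP2 and SENP5 averaged 41.6 ± 0.929 and 42.9 ± 1.31 FPKM in ER42, against 31.3 ± 1.52 and 31.4 ± 1.05 FPKM in the parental line, with no overlap between ER42 and any other line. RFC4, a subunit of the clamp loader of DNA replication, had 47.3, 56.5 and 48.4 FPKM in ER42 and 42.1, 46.2 and 45.1 FPKM in the parental line; that difference of 0.18 was small beside 1.19 from ER5.

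Of the 8 members in lipid metabolism and mitochondria, 5 were tested, and 4, 5, 3, 2 and 4 were called higher in ER42 than in ER5, ER28, ER29, ER47 and the parental line. OPA1, the GTPase that fuses mitochondrial inner membranes, had 92.2, 98.6 and 105 FPKM in ER42, against 57.0 to 78.2 FPKM in all others. PCYT1A, which makes the rate-limiting intermediate of phosphatidylcholine synthesis, had 22.3, 21.5 and 21.5 FPKM in ER42 and 14.6 to 24.2 FPKM elsewhere, which overlap. EHHADH, a peroxisomal enzyme of fatty acid oxidation and the first member of the stretch, had 5.90, 7.42 and 5.70 FPKM in ER42 and 5.80, 5.36 and 5.02 FPKM in ER47. Its ER42 and ER47 libraries overlap, and the parental line was the lowest at 3.76 ± 0.403 FPKM. The EHHADH difference from ER28 was 0.30 and from ER5 0.28; without ER42 replicate 2 they were 0.20 and 0.18 and no longer called.

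Of 11 members in iron uptake, endocytosis and trafficking, 9 were tested, and 7, 9, 9, 8 and 7 were called higher in ER42 than in ER5, ER28, ER29, ER47 and the parental line. TFRC, the transferrin receptor that brings iron into cells, had 98.7, 96.8 and 81.0 FPKM in ER42 and 90.7, 83.6 and 87.3 FPKM in the parental line. Its libraries in the other resistant lines lay between 42.8 FPKM in ER5 and 58.5 FPKM in ER28, below every ER42 and parental library. ER42 and the parental line overlapped (difference of 0.07), whereas ER42 stood 1.00 above ER5. ATP13A3, a P-type ATPase that carries polyamines, averaged 85.2 ± 5.48 FPKM in ER42 and 66.4 ± 1.36 FPKM in the parental line, and ACAP2, an activator of the GTPase activity of ARF6, averaged 28.9 ± 2.23 and 15.9 ± 1.85 FPKM; in both genes all ER42 libraries were above all others.

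Of 14 members in kinase signalling and adhesion, 6 were tested, and 6, 4, 5, 5 and 4 were called higher in ER42 than in ER5, ER28, ER29, ER47 and the parental line. PAK2, a kinase activated by the GTPases Rac and Cdc42, had 46.3, 49.0 and 43.4 FPKM in ER42 and 30.3 to 43.8 FPKM elsewhere; the lowest ER42 library lay just below the highest of the others. MAP3K13, a kinase upstream of JNK, averaged 27.3 ± 1.13 FPKM in ER42 and 22.5 ± 0.653 FPKM in the parental line. TNK2, a non-receptor tyrosine kinase bound by Cdc42, averaged 23.1 ± 0.689 FPKM in ER42 and 18.5 ± 0.901 FPKM in the parental line. Neither MAP3K13 nor TNK2 had an ER42 library that reached down to another line.

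LPP, a LIM-domain protein of focal adhesions, had the widest spread within ER42, at 6.76, 11.7 and 15.1 FPKM. It had 5.16, 7.76 and 6.45 FPKM in ER28 and 1.23, 1.27 and 0.617 FPKM in the parental line, so ER42 replicate 1 overlapped ER28 and the parental line lay far below. Markers of fibroblasts, cells in which LPP is abundant, summed to 41.8 to 83.1 FPKM in ER42, 60.8 to 63.7 FPKM in ER28 and 27.3 to 33.0 FPKM in the parental line, with 3 of 6 at 1 FPKM or more in all ER42 libraries and 4 of 6 in the parental ones. The largest of them, PDGFRA, had 33.3, 34.6 and 66.4 FPKM in the ER42 libraries and 16.8, 18.3 and 19.4 FPKM in the parental ones. COL1A1 was also higher in ER42, with 4.75, 6.81 and 11.8 FPKM, against 2.27, 2.72 and 3.3 FPKM in the parental line. LUM was lower in ER42, with 3.11, 3.33 and 1.57 FPKM, against 6.99, 9.29 and 9.11 FPKM in the parental line. COL3A1 had 0.373, 0.421 and 1.68 FPKM in ER42 and 1.28, 1.29 and 1.24 FPKM in the parental line. COL1A2 and DCN were listed at 0 in the parental line. In ER42 COL1A2 had 0.0415, 0.737 and 0.828 FPKM and DCN had 0.215, 0.15 and 0.833 FPKM. The markers thus did not move in 1 direction, and their part in the LPP level was not tested.

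Of the 4 glycosylation and GPI anchor members, all tested, 2 were called higher in ER42 in each of the 5 comparisons: PIGX in all of them, XXYLT1 against the resistant lines and ST6GAL1 against the parental line. PIGX, of GPI anchor synthesis, averaged 24.2 ± 0.99 FPKM in ER42 and 20.4 ± 0.332 FPKM in the parental line. XXYLT1, which extends xylose on Notch repeats, averaged 22.9 ± 1.39 FPKM in ER42 and 21.6 ± 0.553 FPKM in the parental line. ST6GAL1, the enzyme that adds terminal sialic acid to N-glycans, had 20.1, 22.1 and 19.0 FPKM in ER42 and 4.96, 5.03 and 5.41 FPKM in the parental line. The other resistant lines ranged from 15.6 to 25.4 FPKM, so in ST6GAL1 the parental line stood apart and ER42 did not.

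The remaining tested members were fewer. TCTEX1D2, a light chain of dynein, had 22.8, 24.9 and 19.5 FPKM in ER42, against 9.89 to 18.1 FPKM elsewhere. TMEM44, a transmembrane protein, had 20.4, 22.0 and 23.8 FPKM in ER42, against 13.0 to 16.2 FPKM. The libraries of ER42 overlapped no other line in either gene. MUC20, a mucin, had 1.57, 2.97 and 2.71 FPKM in ER42, against 0.338 to 3.96 FPKM elsewhere, and was called higher than the parental line alone. Of 23 members in the mixed list of secreted, barrier and other proteins 4 were tested, and of 3 transcription factors and FAM43A only FAM43A was. NCBP2-AS2 had 31.9, 33.5 and 32.1 FPKM in ER42 and averaged 38.2 ± 3.91 FPKM in ER5. That difference of −0.22 lost its call without ER5 replicate 1 or 2 and without ER42 replicate 1 or 3, where it was −0.16, −0.20, −0.21 and −0.21. The sources used here do not say whether strand was used in counting, so reads of NCBP2-AS2 and NCBP2 may not be separable.

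The 39 members that were not tested are mostly genes of other tissues. FETUB, RTP2, CLDN1 and GMNC were listed at 0 in all 18 libraries, 17 more stayed under 0.1 FPKM, and 15 peaked between 0.1 and 1 FPKM. P3H2, PYDC2 and TM4SF19 reached 1 FPKM in at least 1 library but in fewer than 3. The ER42 differences above therefore concern 44 of the 83 members.

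Promoters are shown for 3 members that stand for the range of behaviour: EIF4A2, which was not called higher in ER42 than in ER5, ER29 or ER47, TFRC, whose ER42 and parental libraries overlapped, and LRCH3, which was above every other library. Each line gives the 250 bases before the RefSeq start in GRCh38.p14, read 5′ to 3′ on the gene's strand, with GC boxes (GGGCGG or its complement CCGCCC) in capitals. EIF4A2 lies on the plus strand at chr3:186783327-186783576, TFRC on the minus strand at chr3:196082091-196082340 and LRCH3 on the plus strand at chr3:197791004-197791253. The expression values were made on hg19 and no coordinate was converted.
EIF4A2: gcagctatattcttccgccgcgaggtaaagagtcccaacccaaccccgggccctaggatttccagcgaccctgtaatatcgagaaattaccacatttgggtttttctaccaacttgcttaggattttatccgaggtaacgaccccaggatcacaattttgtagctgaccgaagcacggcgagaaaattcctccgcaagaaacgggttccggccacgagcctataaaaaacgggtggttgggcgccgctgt
TFRC: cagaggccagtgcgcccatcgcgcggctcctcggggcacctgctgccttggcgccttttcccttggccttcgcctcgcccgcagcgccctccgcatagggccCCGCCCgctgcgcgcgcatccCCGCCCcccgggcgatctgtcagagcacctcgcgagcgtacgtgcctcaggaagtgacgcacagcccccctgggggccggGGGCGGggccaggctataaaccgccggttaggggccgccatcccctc
LRCH3: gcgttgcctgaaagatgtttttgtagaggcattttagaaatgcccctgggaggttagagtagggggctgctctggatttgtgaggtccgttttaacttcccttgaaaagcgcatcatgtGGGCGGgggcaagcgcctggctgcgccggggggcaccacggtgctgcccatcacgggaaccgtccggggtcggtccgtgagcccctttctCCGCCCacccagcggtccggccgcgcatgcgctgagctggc
EIF4A2 holds 0 GC boxes, TFRC 3 and LRCH3 2, and the letters TATAAA occur in EIF4A2 and TFRC.

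RefSeq promoters were found for 39 of the 44 tested members and 34 of the 39 others. A GC box on either strand occurred in 27 tested members (69.2%), in 10 members that were not tested (29.4%) and in 42.6% of all 35116 promoters in the table. TATAAA occurred in 3 tested members (7.69%), 7 others (20.6%) and 10.7% of all promoters, and CCAAT in 10 (25.6%), 8 (23.5%) and 32.0%. The tested members had a median GC content of 66.4%, against 50.8% in the others and 58.0% in all promoters. These are letter matches in a fixed window, and the tested members were also those with the higher expression.

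The run of higher ER42 levels began before EHHADH. The genes around this edge were looked at after their values had been seen. In bins of 20 tested protein-coding genes, the last bin before SOX2 had median differences of −0.00, 0.01, 0.01, 0.04 and 0.05 from ER5, ER28, ER29, ER47 and the parental line. The next bin, from SOX2 to PSMD2, had 0.42, 0.53, 0.51, 0.53 and 0.42, close to the bins that hold the members. FXR1, an RNA-binding protein before the edge, had 109, 121 and 105 FPKM in ER42 and 97.3 to 117 FPKM in the other libraries. ATP11B, a phospholipid-transporting ATPase and the first tested gene after SOX2, had 51.4, 54.9 and 45.6 FPKM in ER42, against 18.2 to 31.8 FPKM elsewhere, with no overlap. The mean of the 5 differences was 0.04 for FXR1, 0.13 for DNAJC19, 0.09 for SOX2, 1.10 for ATP11B and 0.71 for DCUN1D1.

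From SOX2 to VPS8, 14 of 27 tested genes were called higher in ER42 than in all 5 other lines and 16 had no overlap, against 5 and 12 of the 660 tested genes before SOX2. VPS8, a trafficking subunit just outside the window, had a mean difference of 0.57, and EHHADH, just inside, of 0.36. EPHB3, another neighbour, went the other way with −0.32. At the other end LRCH3 had 0.74 and the 3 tested genes beyond it, IQCG, RPL35A and LMLN, had 0.26, −0.17 and 0.20. None of those 3 was called higher in ER42 than in any resistant line. IQCG was called higher than the parental line, RPL35A was called lower than ER5 (difference of −0.66), and LMLN was not called in any comparison.

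**Figure D4:**
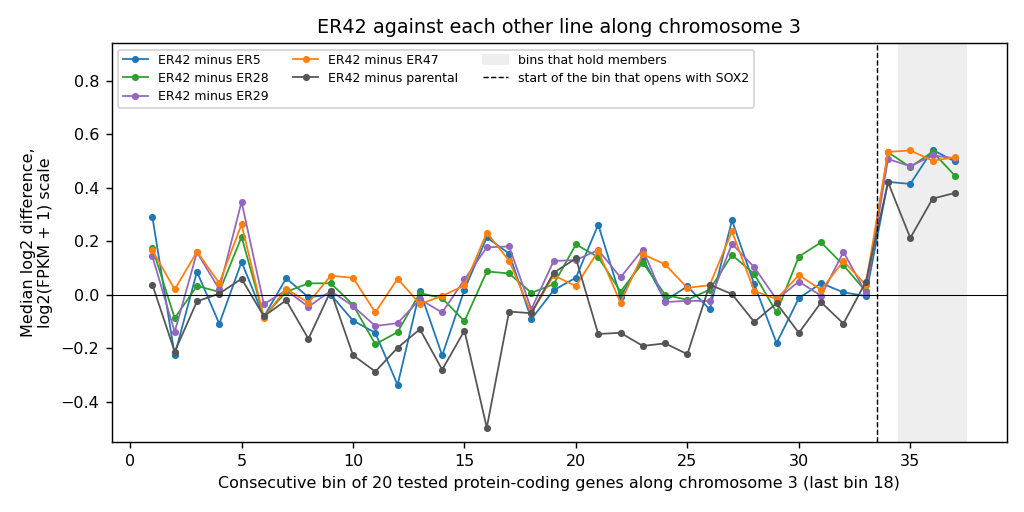
Median log2 difference (y axis, log2(FPKM + 1) scale) of ER42 from each other line in consecutive bins of 20 tested protein-coding genes along chromosome 3 (x axis, bin number; the last bin has 18). The dashed line marks the bin that opens with SOX2; medians are −0.00 to 0.05 in the bin before it, 0.42 to 0.53 in it, and 0.21 to 0.54 in the shaded bins that hold members.

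The genes left out by the rule behaved less evenly. ETV5, a transcription factor downstream of ERK signalling, had 29.1, 26.7 and 18.3 FPKM in ER42, and its difference was 2.52 from ER5 and −0.31 from the parental line. HES1, a transcriptional repressor downstream of Notch, had 1.16, 1.54 and 20.2 FPKM, so ER42 replicate 3 stood far from the other ER42 libraries. Its replicate 3 was also the highest in ER5, at 5.58, 10.3 and 17.1 FPKM, and in ER47, at 4.94, 3.89 and 13.6 FPKM. Replicate 3 was highest in ER29 and the parental line too, at 2.86 and 0.76 FPKM. In ER28 it was lowest, at 5.33 FPKM. DNAJB11, a chaperone of the endoplasmic reticulum, had 49.6, 46.0 and 37.5 FPKM in ER42 and differed by −0.55 from the parental line. Against ER5, ER28, ER29 and ER47 DNAJB11 was called higher in ER42, by 0.87, 0.59, 0.56 and 0.66. RPL39L, a ribosomal protein paralogue, differed by 0.01 from the parental line. It was called higher in ER42 than in ER5, ER29 and ER47, by 0.94, 0.69 and 0.74, and its difference from ER28 was 0.19, not called. IGF2BP2 had at most 0.0259 FPKM in ER42. Among noncoding genes in the window 34 were tested, with median differences of 0.33, 0.55, 0.22, 0.38 and 0.55 from ER5, ER28, ER29, ER47 and the parental line; many lie within or opposite the coding genes, and their reads may not be separable.

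The comparisons of the other resistant lines with the parental line did not enter the choice of genes and could be tested. In ER5 10 members rose and 16 fell, against 24.5% and 27.5% of all tested genes. In ER28 4 rose and 14 fell, against 14.6% and 20.9%, and in ER29 5 rose and 17 fell, against 23.1% and 27.1%. In ER47 6 rose and 14 fell, against 18.8% and 28.1%. The falls were 36.4%, 31.8%, 38.6% and 31.8% of the tested members in ER5, ER28, ER29 and ER47, beside 37.0%, 33.6%, 39.6% and 40.7% of the tested protein-coding genes on the rest of chromosome 3. The medians of the members were −0.08, −0.17, −0.08 and −0.13 in ER5, ER28, ER29 and ER47, beside −0.07, −0.07, −0.08 and −0.12 over all tested protein-coding genes. After quantile normalisation 11 rose and 11 fell in ER5, 4 and 5 in ER28, 8 and 11 in ER29, and 10 and 6 in ER47, and the medians became 0.04, −0.07, 0.01 and 0.03. Under that scaling the counts over all tested genes also moved, to 5465 higher and 4604 lower in ER5, 3242 and 3118 in ER28, 4616 and 4513 in ER29, and 4368 and 4297 in ER47. With median-of-ratios scaling 10 members rose and 15 fell in ER5, 5 and 11 in ER28, 5 and 17 in ER29, and 8 and 12 in ER47. Without ER28 replicate 1 the 4 rises in ER28 became 2. These comparisons share the parental libraries.

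**Figure D5:**
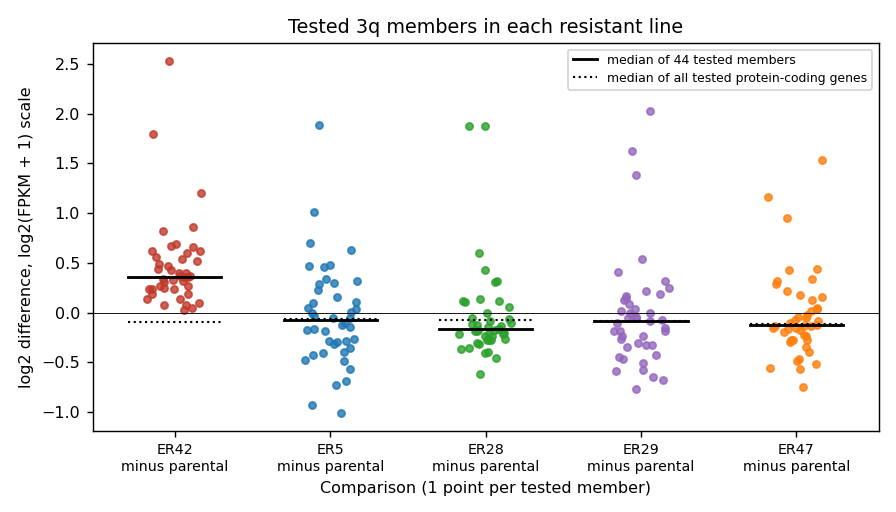
Log2 difference (y axis, log2(FPKM + 1) scale) of each resistant line from the parental line for the 44 tested members (points); the solid bar is their median and the dotted bar the median of all tested protein-coding genes. The ER42 median is 0.36, and those of ER5, ER28, ER29 and ER47 lie between −0.17 and −0.08.

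Differences among the 5 lines other than ER42 passed the F test in 30 of 44 members (68.2%), near the 61.9% of all tested genes. On the rest of chromosome 3, 73.3% of the tested protein-coding genes passed. The 5 members with the lowest p were ST6GAL1, TFRC, RFC4, RNF168 and TRA2B. ST6GAL1 rose in all 4 resistant lines, by 1.89 in ER5, 1.88 in ER28, 2.03 in ER29 and 1.54 in ER47 (SE 0.10; F test adjusted p = 1.65e-09). With 20.2 to 23.3 FPKM in ER5 and 15.6 to 18.1 FPKM in ER47, against 4.96 to 5.41 FPKM in the parental line, none of the resistant libraries overlapped the parental ones.

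TFRC fell in all 4, by 0.92 in ER5, 0.62 in ER28, 0.68 in ER29 and 0.74 in ER47 (SE 0.07; adjusted p = 2.44e-07). RNF168 also fell in all 4, by 0.69, 0.40, 0.58 and 0.52 in ER5, ER28, ER29 and ER47 (SE 0.07; adjusted p = 1.13e-05). TRA2B fell by 0.57, 0.27, 0.65 and 0.49 in the same lines (SE 0.07; adjusted p = 1.2e-05); after quantile normalisation its falls in ER28 and ER47 were 0.08 and 0.20 and no longer passed. RFC4 fell by 1.01 in ER5, 0.76 in ER29 and 0.57 in ER47 (SE 0.10; adjusted p = 3.64e-06), and its difference in ER28 was −0.22 (adjusted p = 0.108).

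The RFC4, TRA2B, TFRC and RNF168 differences of ER42 from the parental line were 0.18, 0.19, 0.07 and 0.24, beside 1.19, 0.75, 1.00 and 0.93 from ER5. RNF168 was the one of these 4 called higher in ER42 than in the parental line, with 22.3 to 23.7 FPKM against 19.0 to 19.6 FPKM. By contrast BDH1, DLG1 and LRCH3 differed from the parental line by 0.86, 0.49 and 0.66 in ER42, and by −0.23 to 0.04 in the other resistant lines. Among the 4 resistant lines other than ER42, an F test added after the values were seen passed in 23 of 44 members (52.3%). It passed in 40.7% of all tested genes and in 47.8% of the tested protein-coding genes on the rest of chromosome 3.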

How the data were processed

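RNA was depleted of ribosomal RNA and sequenced, per the labels' protocols, on HiSeq and NextSeq instruments; the sources used here do not assign libraries to an instrument, so it could not be entered in the fit. STAR 2.5.3, featureCounts and Subread 1.5.0-p1 with hg19 are named in the submitters' processing notes. The FPKM values are the authors' deposited unit. The sources used here name neither a tool for that step nor the library total behind it, so the meaning given above is the usual one. Gene names, types and order came from GENCODE v29, in which 82.5% of the 63657 identifiers and 95.3% of the tested ones were found.

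Tests used limma 3.58.1 in R 4.3.3 on log2(FPKM + 1), with 1 coefficient per line, all 18 libraries and an intensity trend. Genes needed 1 FPKM in 3 libraries. Differences on this scale understate the change of low genes. The script was checked on simulated data. An adjusted p under 0.05 was called, and 26 alternatives were run.

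The members and lists were chosen with earlier results of these data known, and some role lists were corrected after values were seen. Members named with values are the first and last by position, the 10 most abundant, the 5 with the highest and the 5 with the lowest mean ER42 difference, the 5 with the lowest F-test p, the top 3 per role list, the nearest neighbours, any called lower and those left out. LSG1, FYTTD1 and ACAP2, and the genes near SOX2, were named after their values were seen. Depth is known only relative to parental replicate 1, and intervals for single values cannot be given from FPKM.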

Additional observations from a re-analysis of the deposited data

Results flagged for a closer look

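Among ER5, ER28, ER29 and ER47 the difference from the parental line itself varied in 23 of 44 tested members (52.3%). This was a limma F test of the 4 lines against each other, added after the values were seen. It passed in 40.7% of all tested genes. The 5 members given here were picked by the lowest p in the F test among the 5 lines other than ER42. Both tests use the same libraries of the 4 lines, so that choice favoured low p-values here. Further named members passed the test of 4 lines, among them NCBP2-AS2 (adjusted p = 5.61e-05) and EIF4A2 (adjusted p = 0.000303). The adjusted p was 0.00016 for RFC4, which was lowest in ER5 at 21.6 ± 1.81 FPKM and highest in ER28 at 38.1 ± 3.32 FPKM (SD, n = 3). It was 0.0041 for TRA2B, with 94.3 ± 3.98 FPKM in ER29 and 123 ± 2.75 FPKM in ER28. For ST6GAL1 it was 0.00508, with 16.8 ± 1.26 FPKM in ER47 and 24.0 ± 1.28 FPKM in ER29. For TFRC it was 0.00863, with 45.5 ± 2.86 FPKM in ER5 and 56.6 ± 1.72 FPKM in ER28. For RNF168 it was 0.0291, with 11.6 ± 0.48 FPKM in ER5 and 14.5 ± 0.775 FPKM in ER28. In RFC4, TRA2B, TFRC and RNF168 the line with the highest mean of the 4 was ER28. Groups of 3 libraries were not tested for outliers.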

How the results depend on the processing

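Without the filter on low values 79 of 83 members entered (4 are listed at 0 in every library), and the median ER42 difference was 0.12 from ER5, 0.36 from ER28, 0.26 from ER29, 0.22 from ER47 and 0.19 from the parental line; the members' level, averaged over the 3 ER42 libraries, was 0.51 with the filter and 0.27 without it. The members this adds are low. A pseudocount of 0.1 gave 0.56 from ER28, 0.56 from ER47 and 0.39 from the parental line, a filter at 5 FPKM 0.55 from ER47, and median-of-ratios scaling 0.46 from ER47. The share of higher among all calls of ER42 against ER47 was 49.6% with median-of-ratios scaling and 43.9% with quantile normalisation, against 60.4% as reported. The members called higher there were 29 and 28, against 32. The cause was not tested. Quantile normalisation gave 0.46 from ER47 and 0.44 from the parental line. Under it EIF4A2 in ER42 minus ER29 turned to −0.25 (adjusted p = 0.0461; 0.667 to 0.997 under the other alternatives), and the differences from the parental line turned to 0.066 for ATP13A3 in ER47, 0.17 and 0.19 for NCBP2 in ER5 and ER29, and 0.01 for OPA1 in ER5. It also changed the members that rose in ER29 to 8 and in ER47 to 10, and those that fell in ER28 to 5, in ER29 to 11 and in ER47 to 6.

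Leaving out each library in turn, the median ER42 difference ranged from 0.50 to 0.53 from ER5, 0.48 to 0.53 from ER28, 0.50 to 0.57 from ER29, 0.48 to 0.53 from ER47 and 0.36 to 0.40 from the parental line. The members called higher ranged from 30 to 33, 32 to 37, 33 to 34, 28 to 33 and 27 to 34, and those that rose in ER28 from 2 to 5. With replicate number as a block the counts were 33, 38, 33, 31 and 34, and no count moved by over 1.5 times. Of 45 same-numbered pairs, 5 deviated together with a correlation over 0.1. The median correlation was 0.024, beside −0.00656 in pairs with different numbers. These values over all tested genes cannot tell whether the numbers pair the samples. HES1 was highest in replicate 3 in every line but ER28. Over single genes and alternatives 6925 values kept their direction and call, 142 lost the call, 48 gained one and 5 reversed. The depth of single values is not known from FPKM.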
